A study of Rattus norvegicus with 20 samples.

Results

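The comparison described here is between rats given a miR-17-5p mimic and rats given a scrambled small RNA, read in synaptoneurosomes of the ventral hippocampus. It rests on the 5 synaptoneurosome mimic arrays and the 5 synaptoneurosome control arrays, 10 of the 20 arrays in the series, chosen by their titles. The other 10 arrays are whole homogenate of the same region, 5 per treatment, and are used only to set the synaptoneurosome differences beside them. All genes with a probe set that carried a single gene symbol were considered, 22093 in all, and the 15465 that passed a filter on dim values were tested.

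The animals were male Sprague-Dawley rats aged 2 months. The mimic group received 200 pmol of a synthetic miR-17-5p mimic in 1.5 µl, injected on both sides into the ventral hippocampus, and the control group received a scrambled sequence by the same surgery. Each condition held 11 to 13 animals, and 100 ng of RNA per sample was amplified and labelled for a whole-transcript array. The labels name no transgene, no deletion and no stressor for these 4 groups, and the surgery, anaesthesia and ketoprofen were common to all of them. Whether each array stands for its own animal or for a pool is not stated, nor whether arrays share animals. The 5 arrays per group may therefore not count animals. The p-values below reflect spread between arrays, which may in part be technical.

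MicroRNAs of the miR-17 family guide the Argonaute silencing complex to messenger RNAs that pair with the seed, the short stretch near the 5′ end of the microRNA. Pairing usually lowers translation and the stability of the transcript, so a mimic is expected in general to act on transcripts with seed matches. Synaptoneurosomes are pinched-off synaptic endings collected from homogenised brain tissue, and they hold the transcripts that neurons and the fine processes of astrocytes keep far from the nucleus. In bulk RNA of this kind, fewer synaptic particles of a type and less RNA in each of them cannot be told apart.

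The sequences below show what the injected mimic stands for and which endogenous rat microRNAs share its seed. Capitals mark bases 2 to 8, the seed, and all sequences run 5′ to 3′ as listed by RefSeq for the GRCr8 assembly.
miR-17-5p: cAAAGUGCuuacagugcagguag
miR-20a-5p: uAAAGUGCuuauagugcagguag
miR-20b-5p: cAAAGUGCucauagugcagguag
miR-93-5p: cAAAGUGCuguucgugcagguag
miR-106b-5p: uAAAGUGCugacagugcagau
These 5 mature names come from 6 genes. Mir17 gives miR-17-5p from chr15:98587861-98587883 on the plus strand, and Mir106a gives a mature sequence with the same letters from chrX:137343615-137343637 on the minus strand. Outside the seed the members differ from miR-17-5p at few positions: miR-20a-5p and miR-20b-5p match it at 21 of their 23 bases and miR-93-5p at 19 of 23. The array probes report precursor genes, not the injected mimic or mature microRNAs, so uptake of the mimic was not measured on these arrays.

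The fraction was checked against its markers before the comparison was read. The check was a fit over all 20 arrays that pooled the spread of both fractions, so its errors are approximate. Endothelial markers were lower in synaptoneurosomes than in homogenate for 13 of 13 tested members in both treatments (limma, adjusted p below 0.05), with a median log2 difference of -1.70 in control and -1.99 in mimic rats, where 28.0% and 30.8% of all genes were lower and 11.8% and 11.0% higher. Flt1, a receptor of endothelial cells, fell by 3.50 ± 0.09 on the log2 scale in control rats, and the pericyte gene Rgs5 fell by 4.54 ± 0.26 (SE, n = 5 against 5). All 6 tested nuclear RNAs fell in both treatments as well, by medians of -2.18 and -2.08. Transcripts known to be kept in dendrites were split: of 20 tested, 7 rose and 4 fell against homogenate in control rats. Arc rose by 1.06 ± 0.28 and Camk2a, the dendritic kinase transcript, by 0.23 ± 0.08, while Nrgn, a calmodulin-binding protein gene, fell by 1.43 ± 0.14 and Actb, the beta-actin gene, by 0.42 ± 0.07. The postsynaptic scaffold gene Shank3 rose by 1.01 ± 0.32. The astrocyte filament gene Gfap rose by 0.76 ± 0.28, while the myelin gene Mbp and the glutamate transporter gene Slc17a7 had differences of -0.07 ± 0.19 and 0.10 ± 0.20 that did not pass. Glial transcripts are therefore part of what these arrays measure.

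Synaptoneurosome arrays varied more among themselves than homogenate arrays. The median standard deviation of a gene was 0.22 (control) and 0.17 (mimic) in synaptoneurosomes and 0.12 and 0.11 in homogenate. Among the 10 arrays, 3 were unlike the rest, namely control 4, control 5 and mimic 5. On the leading component of the variation within groups, which held 66.8% of it, they scored 30.7, 44.7 and 53.1 while the others lay between -29.4 and -7.0. The same 3 arrays had the lowest mean log2 levels of nuclear RNAs, 10.26, 9.95 and 10.14, against 10.98 to 11.33 in the other 7. They also had the highest levels of interneuron markers, 9.98, 10.52 and 10.01, against 8.71 to 9.14. Because 2 of them are controls and 1 is a mimic array, a gene's or a list's difference between mimic and control is also given without them where that moves it by more than 1.5 times. Their part in the results beyond that was not tested.

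Across the 15465 genes, 0 passed the threshold of an adjusted p below 0.05 in the comparison of mimic with control synaptoneurosomes (limma, 0.0% of genes; the smallest adjusted p was 0.996). At an unadjusted p below 0.05 there were 274 genes, 1.77% of those tested, of which 126 (0.815%) had higher and 148 (0.957%) lower values in mimic rats. With each array centred on its median that split was 153 higher and 117 lower, so the direction of the balance depends on the scaling. The 1.77% lies below the share of 0.05 that this threshold gives when no gene differs and arrays are independent. Mimic and control arrays of one number deviated together in 4 of 5 numbers, so the 2 shares cannot be weighed against each other. With the replicate number added to the limma fit, 1066 genes had an unadjusted p below 0.05, 289 higher and 777 lower. Differences were small for nearly every gene. The median was -0.01 on the log2 scale, the 5th to the 95th percentile ran from -0.31 to 0.19, and only 8 genes (0.0517%) reached a 2-fold difference (3 higher and 5 lower), 1 of them with an unadjusted p below 0.05. The median 95% confidence interval reached 0.27 to either side of the estimate for a gene taken alone, before any adjustment for the number of genes. In homogenate the same test also called 0 genes, with 692 (4.47%) at an unadjusted p below 0.05.

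**Figure D1:**
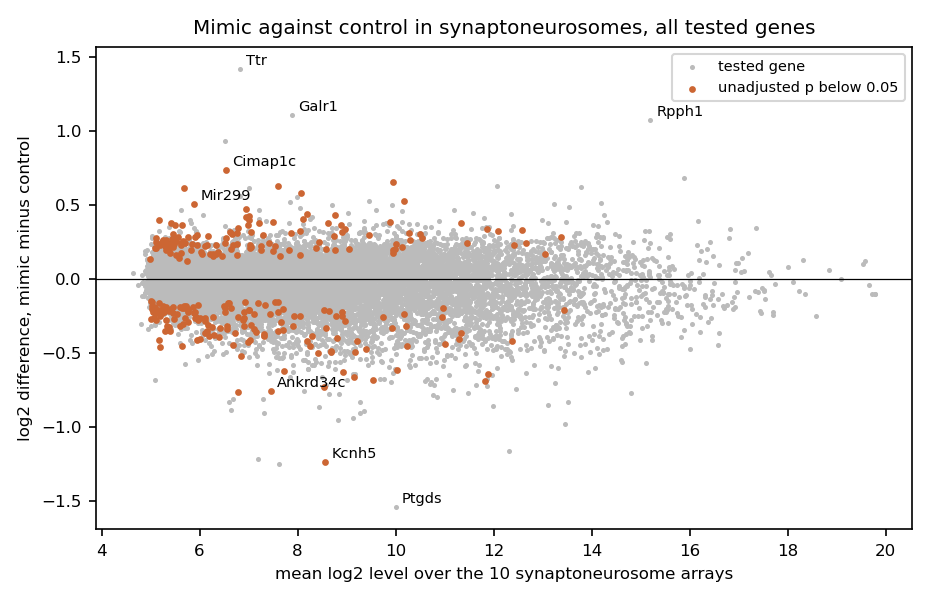
Log2 difference between mimic and control synaptoneurosomes (vertical axis) against the mean log2 level over the 10 arrays (horizontal axis) for the 15465 tested genes, with the 274 genes at an unadjusted p below 0.05 in colour. The coloured points lie mostly at low levels, and of the labelled genes with differences beyond 1, Kcnh5 is the one that is coloured.

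Precision fell with the level of a gene. The median standard error was 0.09 in the 3867 dimmest genes and 0.19 in the 3866 brightest. The dimmest held 96 of the genes with an unadjusted p below 0.05, and the brightest held 37. As dim probe sets are compressed on this scale, a small difference there may stand for a larger change in RNA.

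Genes with the smallest unadjusted p on the higher side were led by Mir299, the precursor gene of a microRNA in a large imprinted cluster. Its mature products are shown because it heads the comparison, again with bases 2 to 8 in capitals.
miR-299a-5p: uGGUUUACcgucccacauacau
miR-299a-3p: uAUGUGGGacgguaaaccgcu
Neither carries the miR-17 seed, and RefSeq places them at chr6:134545075-134545096 and chr6:134545107-134545127 on the plus strand of GRCr8. In arrays 1 to 5 of each group, the order used throughout, log2 levels of Mir299 were 5.74, 5.75, 5.37, 5.68 and 5.65 in control rats and 6.31, 6.03, 6.23, 6.17 and 5.98 in mimic rats. Every mimic array lay above every control array. The difference was 0.51 ± 0.10 (a ratio of 1.42; limma, unadjusted p = 0.00035, adjusted p = 0.996), and it was 0.12 ± 0.10 in homogenate.

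The coding gene with the largest difference of these was Cimap1c, which encodes a protein associated with the microtubules of cilia. Control arrays read 6.29, 6.10, 6.21, 5.97 and 6.27, and mimic arrays 6.77, 6.97, 7.54, 6.75 and 6.47. The groups did not overlap, the difference was 0.73 ± 0.17, and homogenate gave 0.48 ± 0.14. Fosl2, a subunit of the AP-1 transcription factor that neurons induce with activity, read 7.79, 7.39, 8.30, 7.60 and 7.84 in control and 8.39, 8.33, 8.64, 8.49 and 7.97 in mimic rats. Control 3 lay above mimic 5, so the groups overlapped, and the difference was 0.58 ± 0.17 with 0.30 in homogenate. Itpkb, a kinase that phosphorylates the calcium-releasing messenger inositol trisphosphate, differed by 0.37 ± 0.10, with overlap between control 1 at 8.85 and mimic 5 at 8.79. The remaining genes on this side were the uncharacterised LOC100909866 (0.42 ± 0.10), Pcnx1 (0.28 ± 0.08), Prrc1 (0.24 ± 0.07) and Med22, a subunit of the Mediator complex (0.23 ± 0.07). A second probe set of Med22 gave 0.01, so its difference depends on the probe set.

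On the lower side the largest of the 8 differences was that of Ankrd34c, an ankyrin-repeat protein gene. Control arrays read 8.11, 8.33, 7.53, 7.41 and 7.81, and mimic arrays 7.23, 6.98, 6.75, 7.03 and 7.39. The groups were separated by a margin of 0.02 between control 4 and mimic 5, and the difference was -0.76 ± 0.19, with -0.30 ± 0.28 in homogenate. Nrg2, a neuregulin that signals through ErbB receptors at synapses, had the tightest groups: 6.76, 6.72, 6.74, 6.77 and 6.77 in control and 6.52, 6.58, 6.53, 6.54 and 6.59 in mimic rats. No values overlapped, and the difference was -0.20 ± 0.05 (a ratio of 0.871) against -0.11 ± 0.06 in homogenate. The others were Hspd1-ps5, a pseudogene of the mitochondrial chaperonin (-0.38 ± 0.09), the long noncoding RNA LOC102556145 (-0.25 ± 0.07), the zinc finger gene Zfp790 (-0.26 ± 0.07), Mt1f (-0.45 ± 0.13), Rpl36al1, a copy of a ribosomal protein gene (-0.32 ± 0.09, with -0.03 in a second probe set), and Try5, named for a trypsin (-0.41 ± 0.12). Signals of pseudogenes and ribosomal copies are uncertain, as probes can pair with near-identical genes.

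**Figure D2:**
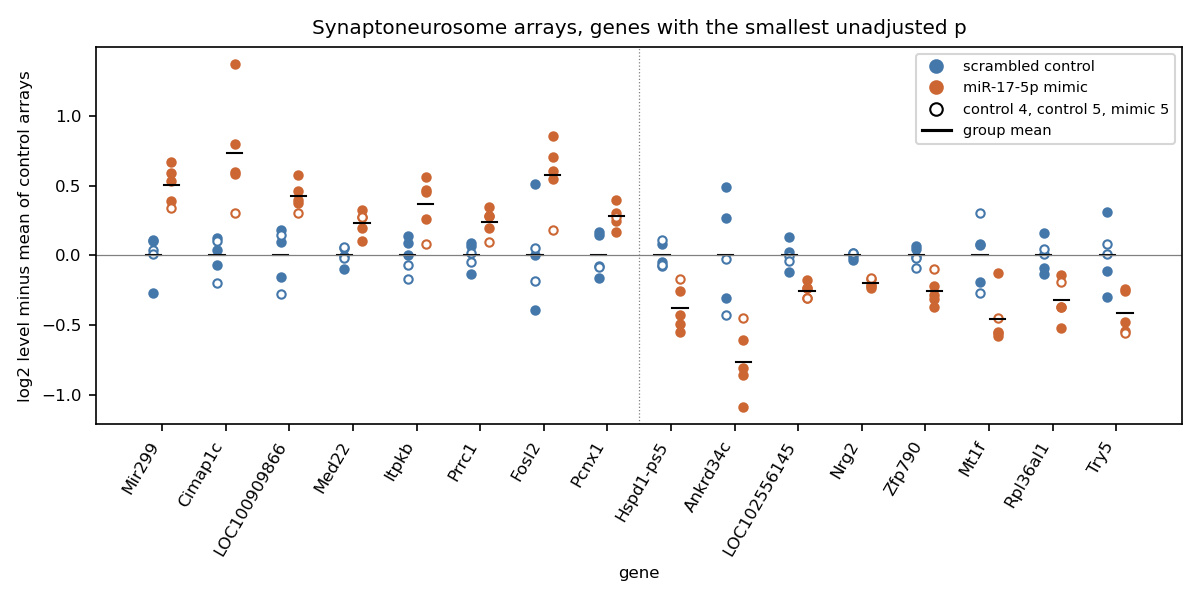
Log2 level of each synaptoneurosome array minus the control mean (vertical axis) for the 8 genes with the smallest unadjusted p on each side, with control arrays in blue, mimic arrays in orange, open circles for control 4, control 5 and mimic 5, and bars for the group means. Among them 5 genes on the higher side and 6 on the lower side show no overlap between the groups, and Nrg2 has the tightest values.

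These 16 genes ranged in unadjusted p from 0.00035 to 0.00754 (limma), and none had an adjusted p below 0.996. Without control 4, control 5 and mimic 5, all 16 kept the sign of their difference. This could not fail for the 5 higher and 6 lower genes whose groups do not overlap. The 16 were also picked on these same arrays. In homogenate 7 of 8 on the higher side and 6 of 8 on the lower side had the same sign. The share of all tested genes with the same sign in both fractions was not computed. Homogenate shares no array with the synaptoneurosome comparison, but arrays of one number deviated together between fractions. They may share animals, which the labels do not state. Ankrd34c without control 4, control 5 and mimic 5 was at -0.99 and Zfp790 at -0.33.

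Non-overlap of the 5 mimic and 5 control arrays was found for 49 genes, 0.317% of those tested, 28 of them higher (0.181%) and 21 lower (0.136%) in mimic rats. Random assignment of arrays to groups of 5 would separate a larger share, 0.00794 of genes, the smallest p of an exact permutation test. That share takes no account of arrays of one number deviating together. Differences of the 49 were modest, between 0.07 and 0.76 in size with a median of 0.21. The gap between the groups was at most 0.23, that of Mir299. By level they were dim: 35 of them (71.4%) had a mean below a log2 level of 7, against 42.3% of all tested genes. In homogenate 37 of the 49 had a difference of the same sign, a count for which the share of all tested genes was not computed. Of the 49, 1 was also free of overlap there, where 100 genes (0.647%) were. That gene, named after its values were seen, was Stxbp6, which encodes a syntaxin-binding protein that acts on vesicle fusion. Its synaptoneurosome levels were 11.24, 11.07, 11.06, 11.00 and 10.98 in control and 10.93, 10.82, 10.63, 10.76 and 10.90 in mimic rats, a difference of -0.26 ± 0.08. Homogenate gave -0.21 ± 0.07, but a second probe set of the gene read 0.09 in synaptoneurosomes, opposite in sign.

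The largest differences, in contrast, came mostly with large errors and from few arrays. Ttr, the transthyretin gene that marks the choroid plexus, read 13.51 in mimic 5 and between 5.94 and 6.40 in the other 9 arrays. Its difference of 1.42 ± 1.33 became -0.15 without the 3 arrays that stood apart. Choroid plexus markers as a list had a mean level of 8.14 in mimic 5 and between 6.02 and 6.33 elsewhere, and 8 of 10 had higher mean values in mimic rats, with a median of 0.23 that became -0.04 without those arrays and also without mimic 5 alone.

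Among the genes with the largest negative differences, 4 had their highest control values in the same pair of arrays. Ptgds, the prostaglandin D synthase made in meninges and choroid plexus, read 12.73 in control 2 and 13.83 in control 5, and between 8.08 and 10.34 in the other 8 arrays, for a difference of -1.54 ± 1.01. Ogn, a matrix protein of fibroblasts, was at 9.82 and 10.68 in those controls and between 6.50 and 7.69 elsewhere (-1.25 ± 0.77). The amino acid transporter gene Slc6a20a read 9.55 and 9.34 against 6.39 to 6.93 (-1.22 ± 0.61), and Apod, a lipid carrier, 14.14 and 14.44 against 10.71 to 13.31 (-1.16 ± 0.73). The mean level of mural cell and fibroblast markers was also highest in these arrays, 7.62 in control 2 and 7.74 in control 5, against 6.64 to 7.05 in the other 8. Of that list 16 of 18 members had lower mean values in mimic rats, with a median of -0.24 and -0.20 without the 3 arrays that stood apart. Its contractile gene Acta2 had the smallest unadjusted p, -0.39 ± 0.14. The part of this cell material in the 4 differences was not tested.

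Kcnh5, a voltage-gated potassium channel of the EAG family, was the gene with at least a 2-fold difference and an unadjusted p below 0.05. Control arrays read 10.66, 9.67, 8.47, 8.41 and 8.68, and mimic arrays 7.98, 7.50, 7.84, 7.79 and 8.58. Mimic 5 alone lay within the control range, and controls 1 and 2 lay far above the rest. The difference was -1.24 ± 0.42 (limma, unadjusted p = 0.014, adjusted p = 0.996), and -1.82 without the 3 arrays that stood apart. In homogenate the same 2 control numbers were highest, at 10.00 and 9.19, while the other 8 arrays lay between 7.22 and 7.83, a difference of -0.93 ± 0.46.

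On the higher side Galr1, a receptor for the neuropeptide galanin, differed by 1.11 ± 0.61. Control arrays read 7.28, 7.07, 6.63, 7.32 and 8.35 and mimic arrays 6.88, 7.86, 9.02, 7.92 and 10.51, so the ranges overlapped widely. The homogenate difference was 1.24 ± 0.33. Rpph1, the RNA of ribonuclease P, differed by 1.07 ± 0.70, with 13.52 and 12.55 in controls 4 and 5, 14.30 in mimic 5 and 15.30 to 16.24 in the other 7 arrays, and by 0.35 without those 3. Car3, a carbonic anhydrase, was high in mimic arrays 1, 2 and 4 (7.64, 8.19 and 7.92) and in control 1 (7.61), and between 5.50 and 5.78 in the others.

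Leaving out control 4, control 5 and mimic 5 together was the 1 setting of those run in which a gene passed (0.00647% of those tested): Cpne2, a calcium-dependent membrane-binding copine, named after its values were seen. Its levels were 8.70, 8.65, 8.83, 9.68 and 10.09 in control rats and 9.68, 9.87, 9.84, 9.63 and 9.55 in mimic rats. Controls 1 to 3 lay below all mimic arrays, and controls 4 and 5 lay within or above them. With all arrays the difference was 0.52 ± 0.27 (limma, adjusted p = 0.996), and without the 3 it was 1.03 ± 0.09 (limma, adjusted p = 0.0343). Homogenate showed the same order of controls, 9.30, 9.03 and 9.57 in numbers 1 to 3 and 10.40 and 10.83 in numbers 4 and 5, beside 10.45 to 10.85 in mimic rats. The difference there was 0.81 ± 0.29. Leaving out any 1 array alone called 0 genes, and the removal of control 4 and control 5 without mimic 5 was not run.

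The described targets of the miR-17 family were the first group of interest, since repression by the mimic would place them lower. Of 51 listed targets 48 were tested, and the other 3 were not analysed here. Mean values were higher in mimic rats for 29 and lower for 19, with a median of 0.03 (0.00 without the 3 arrays that stood apart), beside 45.6% higher and a median of -0.01 over all tested genes. At an unadjusted p below 0.05 there was 1 target (2.08%, beside 1.77% of all genes), higher in mimic rats, and 0 lower. Mean levels of the whole list ranged from 9.44 to 9.64 in control and from 9.46 to 9.62 in mimic arrays, an almost complete overlap.

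Cell-cycle and survival targets are the classical members of this list. Cdkn1a, the p21 inhibitor of cyclin-dependent kinases, read 5.44, 5.57, 5.41, 5.47 and 5.57 in control and 5.36, 5.39, 5.54, 5.60 and 5.51 in mimic rats, a difference of -0.01 ± 0.07 (95% interval -0.17 to 0.15; 0.00 without the 3 arrays). Bcl2l11, which encodes the pro-apoptotic BIM, read 5.68, 5.48, 5.43, 5.24 and 5.42 against 5.44, 5.50, 5.28, 5.46 and 5.20, a difference of -0.07 ± 0.10. Both groups overlapped throughout. The pocket proteins Rbl1 and Rbl2, brakes on E2F factors, were at 0.15 ± 0.12 and 0.17 ± 0.15 (0.10 and 0.04 without the 3 arrays), and cyclin D2 (Ccnd2) at 0.23 ± 0.15.

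Targets with roles in the nervous system gave differences of either sign. App, the amyloid precursor protein gene and 1 of the brightest of the list, read 16.64, 16.80, 16.98, 17.16 and 17.48 in control and 16.43, 16.52, 16.78, 17.01 and 17.37 in mimic rats. The ranges overlapped, and the difference was -0.19 ± 0.21, and -0.12 without the 3 arrays. Hif1a, the hypoxia factor, was at -0.16 ± 0.13 and Timp3, a metalloproteinase inhibitor of the matrix, at -0.36 ± 0.30, the lowest of the list. Sgk1, a kinase induced by glucocorticoids, differed by 0.03 ± 0.10, and by 0.07 without them. Highest was Ezh1, a histone methyltransferase of Polycomb complexes, at 0.32 ± 0.11 (limma, unadjusted p = 0.0123, adjusted p = 0.996). Its control arrays read 11.67, 12.08, 12.12, 11.84 and 11.93 and its mimic arrays 12.30, 12.22, 12.47, 12.15 and 12.10, with overlap at the edge. The activity-dependent nuclear receptor Nr4a3 followed at 0.26 ± 0.12, and Atg7, an enzyme of autophagy, at 0.13 ± 0.07.

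**Figure D3:**
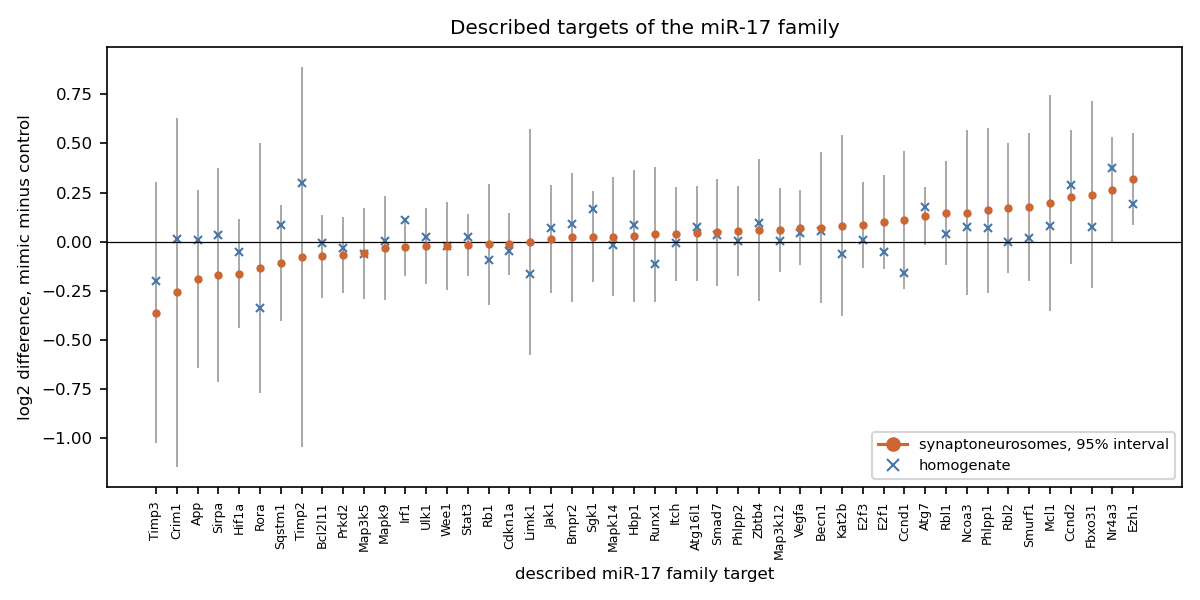
Log2 difference between mimic and control synaptoneurosomes for the 48 tested targets, in order of size, with 95% confidence intervals from limma (orange) and the homogenate difference (blue crosses). The interval of 1 target, Ezh1, lies entirely above 0, and 0 lie entirely below it.

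Confidence intervals give the range of differences compatible with the values of each target taken alone, before any adjustment for the number of genes. They do not give the size of difference that would have been called. The lower end of the 95% interval was above -1 for 45 of the 48 targets and above -0.5 for 41. For dim targets such as Cdkn1a and Bcl2l11 these bounds hold for the array value, which can understate a change in RNA. The median interval reached 0.29 to either side. In homogenate the median of the same targets was 0.02.

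Precursor genes of the family, tested with an exact permutation test of 5 against 5 (252 splits, smallest possible p = 0.00794), showed no difference that passed. Mir17 itself was dim, at 4.62 ± 0.23 in control and 4.66 ± 0.14 in mimic arrays (SD, n = 5; exact permutation p = 0.738). Mir20a was at 5.41 ± 0.27 and 5.33 ± 0.24, and Mir93 at 5.62 ± 0.11 and 5.66 ± 0.15 (SD, n = 5). The difference of Mir20a was -0.08, and -0.15 without the 3 arrays that stood apart. That of Mir93 was 0.04, and -0.06 without them. With all arrays, differences of all 6 precursors lay between -0.08 and 0.11, and the adjusted p over them was 0.738 for each in the exact permutation test. Genes of the microRNA machinery, such as the helicase Mov10 (0.12 ± 0.08, and 0.07 without the 3 arrays) and the deadenylase Cnot7 (-0.15 ± 0.10), had higher mean values in 18 of 22 cases with a median of 0.07, and -0.01 without the 3 arrays that stood apart.

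Synaptic genes were read by role, with differences between the lists not tested. Mean values of inhibitory synapse genes were lower in mimic rats for 16 of 17, with a median of -0.21, and 0 had an unadjusted p below 0.05. The extrasynaptic GABA receptor subunit Gabrd read 7.41, 6.69, 6.82, 7.55 and 7.91 in control and 6.39, 6.49, 6.70, 6.61 and 7.56 in mimic rats (-0.53 ± 0.28), and Gabrb2 differed by -0.56 ± 0.37. Control 4, control 5 and mimic 5 were the 3 highest of the 10 arrays for the inhibitory list, at 13.66, 13.82 and 13.77 against 12.69 to 13.02, and without them the median was -0.03. In that setting 3 of the 17 were lower and 0 higher at an unadjusted p below 0.05 in limma, beside 380 lower of all 15465 genes. Gabrb2 was then at -0.49 and Gabrd at -0.43. Leaving out control 5 alone gave -0.07 and leaving out mimic 5 alone -0.40.

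Glutamate receptor genes had lower mean values in 17 of 26 cases, with a median of -0.13 and -0.02 without those arrays. Leaving out control 5 alone turned it to 0.01, and leaving out mimic 5 alone gave -0.30. At an unadjusted p below 0.05 there were 2, both lower (7.69% of the list, beside 1.77% of all genes). Cacng2, which encodes stargazin, the auxiliary subunit that brings AMPA receptors to synapses, read 11.21, 11.46, 11.25, 11.74 and 11.85 in control and 11.08, 10.80, 10.98, 11.14 and 11.48 in mimic rats. Mimic 5 lay above controls 1, 2 and 3, while the other mimic arrays lay below all controls, and the difference was -0.41 ± 0.16 with 0.08 in homogenate. Grm4, a presynaptic metabotropic receptor, differed by -0.34 ± 0.15, and the kainate receptor subunit Grik5 by 0.22 ± 0.13.

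Postsynaptic scaffold and adhesion genes had higher mean values in 16 of 25 cases, with a median of 0.10, 0.03 without the 3 arrays and 0.04 without control 5 alone. Shank3 read 12.82, 12.21, 13.07, 11.51 and 11.03 in control and 12.58, 12.72, 12.93, 13.06 and 11.53 in mimic rats, a difference of 0.44 ± 0.42 that was 0.12 without them. Its low values are those of control 4, control 5 and mimic 5. Homer2 (0.47 ± 0.34, and 0.27 without the 3) and Dlgap1 (0.21 ± 0.15), further scaffold genes, had their lowest mimic value in mimic 5 too. Dendritic mRNAs as a list had a median of 0.12, and -0.01 without the 3 arrays, with 14 of 20 higher. Arc, the activity-regulated cytoskeletal gene among them, differed by 0.37 ± 0.35, and by 0.09 without the 3 arrays.

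Presynaptic genes were balanced in number, 13 higher and 16 lower, with a median of -0.06 that turned to 0.01 with quantile scaling and to 0.02 without the 3 arrays. Sv2c, a vesicle glycoprotein, had 1 of the larger differences: 9.07, 10.35, 9.86, 9.95 and 10.15 in control against 8.84, 8.67, 9.30, 9.34 and 9.81 in mimic rats (-0.68 ± 0.27; limma, unadjusted p = 0.0283, adjusted p = 0.996). The low control 1 gave the overlap. Slc17a6, the second vesicular glutamate transporter, differed by -0.96 ± 0.58 and the vesicle calcium sensor Syt2 by -0.76 ± 0.51. Control 2 was the highest array for all 3 genes, at 10.35, 11.10 and 9.99.

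**Figure D4:**
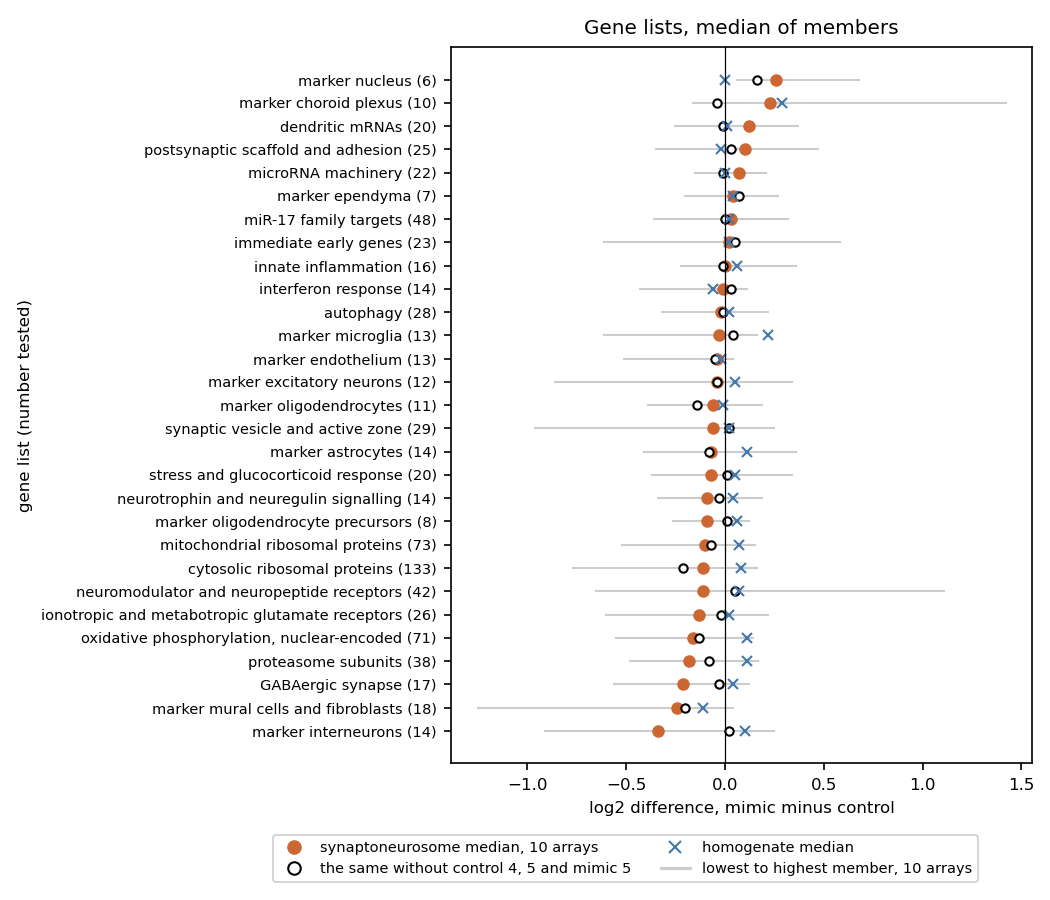
Median log2 difference between mimic and control of the tested members of 29 gene lists (horizontal axis), with the number tested in brackets. Orange circles are the 10 synaptoneurosome arrays, open circles the same without control 4, control 5 and mimic 5, blue crosses homogenate and grey lines the range of members. Medians of interneuron and GABAergic genes move to near 0 without the 3 arrays, and those of oxidative phosphorylation and ribosomal proteins do not.

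Respiratory chain genes had lower mean values in mimic rats for 64 of 71 tested members, with a median of -0.16, and -0.13 without the 3 arrays that stood apart. At an unadjusted p below 0.05 there was 1 (1.41%, beside 1.77% of all genes). By complex, 31 of 36 genes of complex I, 10 of 10 of complex III with cytochrome c, 8 of 8 of complex IV and 13 of 13 of complex V were lower, and 2 of 4 of complex II. Ndufa3, a subunit of complex I, read 7.06, 7.14, 6.68, 7.02 and 7.30 in control and 6.70, 6.72, 6.69, 6.71 and 7.04 in mimic rats (-0.27 ± 0.12). Cox4i1 of complex IV was at -0.37 ± 0.19 and Atp5d of the ATP synthase at -0.22 ± 0.11. Mean levels of the list were 8.84, 9.15, 8.49, 8.81 and 9.48 in control and 8.68, 8.81, 8.63, 8.68 and 9.07 in mimic arrays. Control 3 was the lowest of all 10, and the control range enclosed the mimic range. The homogenate median was 0.11, on the other side of 0. Homogenate mimic 4 had the highest level of the list in that fraction, 9.74 against 9.08 to 9.50 in the others.

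Genes of protein synthesis and turnover lay on the same side. Cytosolic ribosomal protein genes were lower in 104 of 133 cases. At an unadjusted p below 0.05 in limma there were 3, all lower (2.26%, beside 1.77% of all genes). Without the 3 arrays that stood apart there were 18 of 133, all lower, beside 380 lower of all 15465 genes. The share of all genes on either side was 4.21% in that setting. The median of the list was -0.11 with all arrays, and -0.21 without the 3. Leaving out control 2 alone gave -0.03 and control 4 alone -0.25. The list holds 60 genes named as copies, 48 of them lower, and 73 others, 56 of them lower. Array levels ran from 8.67 to 9.66 in control and from 9.01 to 9.30 in mimic rats. Copies such as Rpl38l3 (-0.73 ± 0.32) and Rpl30l3 (-0.43 ± 0.15) had the largest statistics, and their probes may pair with other copies. Mitochondrial ribosomal protein genes were lower in 63 of 73 cases (median -0.10), with Mrpl10 at -0.16 ± 0.07. Proteasome genes were lower in 34 of 38 cases with a median of -0.18, and -0.08 without the 3 arrays; the core subunit gene Psma7 was at -0.25 ± 0.12. In homogenate all of these medians were positive, between 0.07 and 0.11. Homogenate mimic 4 was the highest homogenate array for each list. It read 9.56 for cytosolic ribosomal genes (others 8.96 to 9.30), 7.46 for mitochondrial ribosomal genes (7.07 to 7.28) and 9.78 for proteasome genes (9.24 to 9.55). Homogenate medians without that array were not computed.

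Members of such a list share their arrays and vary together, so the counts of lower members are not counts of independent observations. For none of the 4 lists did array levels of mimic and control rats separate. For oxidative phosphorylation, leaving out single arrays moved the median between -0.28 without control 3 and -0.06 without control 5.

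**Figure D5:**
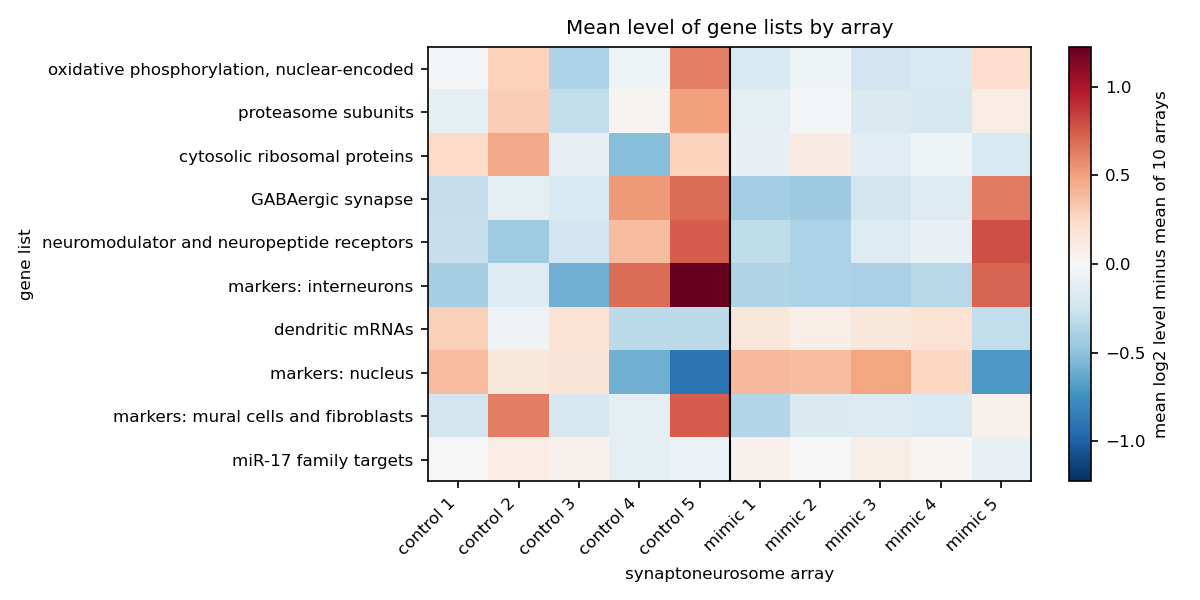
Mean log2 level of selected gene lists in each synaptoneurosome array minus the mean of the 10 arrays, in colour, with control arrays left and mimic arrays right of the line. Control 4, control 5 and mimic 5 share high interneuron, GABAergic and neuromodulator receptor levels and low nuclear RNA levels, and control 2 and control 5 share high mural and fibroblast levels.

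Receptors for neuromodulators and neuropeptides were lower in 29 of 42 cases with a median of -0.11, which was 0.05 without the 3 arrays, 0.04 without control 5 alone and -0.29 without mimic 5 alone. Those 3 had the highest array levels of the list, 8.66, 9.02 and 9.07, against 7.85 to 8.19. With all arrays 0 of the 42 had an unadjusted p below 0.05 in limma. Without the 3 arrays 6 were higher and 2 lower, beside 271 higher and 380 lower of all 15465 genes. Besides Galr1, the serotonin receptor gene Htr2c read 12.87, 13.14, 13.44, 13.39 and 14.50 in control and 13.57, 13.61, 14.57, 14.12 and 14.56 in mimic rats. Control 5 was among the highest and the other controls lay below all mimic arrays, and the difference was 0.62 ± 0.32 with 0.83 in homogenate. Adra1a, an alpha-1 adrenergic receptor, differed by 0.34 ± 0.17.

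Immediate early genes were higher in 14 of 23 cases with a median of 0.02 (0.05 without the 3 arrays), and Fosl2 was the 1 member at an unadjusted p below 0.05 (4.35%, beside 1.77% of all genes). Dusp5, a phosphatase induced by the MAP kinase pathway, differed by 0.23 ± 0.11, and by 0.35 without the 3. The stress list had 1 member of 20 (5.0%, beside the same 1.77%) at an unadjusted p below 0.05, Nr3c2, the mineralocorticoid receptor gene that binds corticosterone in the hippocampus. It read 11.34, 11.74, 12.10, 11.86 and 11.45 in control and 12.15, 12.10, 12.20, 11.92 and 11.80 in mimic rats, overlapping, with a difference of 0.34 ± 0.15 and 0.23 in homogenate. The clock and glucocorticoid target Per1 was at 0.17 ± 0.09 and the transcription factor Zbtb16 at 0.29 ± 0.16, while the list had 12 of 20 members lower and a median of -0.07, which was 0.01 without the 3 arrays. Neurotrophin and neuregulin genes were lower in 11 of 14 cases with a median of -0.09, and -0.03 without the 3 arrays. Nrg2 was the 1 of them at an unadjusted p below 0.05 (7.14%), and the neurotrophin Ntf3 was at -0.34 ± 0.20, or -0.15 without the 3.

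A foreign RNA can be sensed by innate immunity, so those genes were read as well. Interferon-response genes were split evenly, 7 higher and 7 lower of 14 tested, with a median of -0.01 (0.03 without the 3 arrays), and 7 further members were too dim to test. The antiviral gene Mx2 was at -0.30 ± 0.21 and Ifi27 at -0.43 ± 0.26. Inflammation genes had 7 higher and 9 lower of 16 and a median of 0.00 (-0.01 without the 3), with the cytokine Il1b at -0.10 ± 0.07 and Nfkbia, the inhibitor of NF-kappa-B, at 0.12 ± 0.08. Without the 3 arrays these were -0.15 and 0.18. Autophagy genes were at a median of -0.02 over 28 members, and -0.01 without the 3. None of these 3 lists had a member at an unadjusted p below 0.05 in limma.

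Cell-type markers describe what the particles carried. Interneuron markers were lower in 10 of 14 cases with a median of -0.34, and 0.02 without the 3 arrays, the widest shift of the 29 lists in that setting. Leaving out control 5 alone gave -0.05 and control 3 alone -0.54. Npy, a peptide of interneurons, read 7.89, 8.08, 7.44, 10.06 and 10.89 in control and 7.53, 7.72, 7.26, 7.73 and 9.79 in mimic rats (-0.87 ± 0.72, and -0.24 without the 3). Nos1, the neuronal nitric oxide synthase gene, went the other way at 0.25 ± 0.11. Wfs1, a marker of CA1 pyramidal cells, had the lowest difference of 12 tested excitatory neuron markers. Of these 5 were higher, up to 0.34, and 7 lower, with a median of -0.04. Wfs1 read 13.45, 12.42, 13.89, 14.17 and 13.77 in control and 12.09, 12.11, 12.12, 13.12 and 13.98 in mimic rats. The first 3 mimic arrays lay below all controls and mimic 5 above most, and the difference was -0.86 ± 0.43 with -0.62 in homogenate.

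Glial lists had small medians. Astrocyte markers were at -0.07 (10 of 14 lower), oligodendrocyte markers at -0.06 (7 of 11 lower), oligodendrocyte precursor markers at -0.09 (6 of 8 lower) and microglial markers at -0.03 (9 of 13 lower). Without the 3 arrays the last 3 medians were -0.14, 0.01 and 0.04. Clu, an astrocyte chaperone gene, was at -0.31 ± 0.22, the myelin gene Mal at -0.39 ± 0.40 and the complement gene C1qb of microglia at -0.53 ± 0.39. Mal was at -0.14 and C1qb at -0.10 without the 3 arrays. Endothelial markers, already scarce in the fraction, had a median of -0.04, and excitatory neuron markers -0.04 over 12 members. In all 4 glial lists array levels overlapped between the groups. Ependymal markers were higher in 5 of 7 cases with a median of 0.04 (0.07 without the 3), and Hydin, a protein of motile cilia, was at 0.27 ± 0.12. Nuclear RNAs, the material this preparation removes, had higher mean values in mimic rats for 6 of 6, with a median of 0.26, and 0.16 without the 3 arrays, 0.12 without control 4 alone and 0.45 without mimic 5 alone. Snord33, a small nucleolar RNA, read 16.68, 15.90, 16.53, 14.57 and 14.04 in control and 16.33, 16.72, 16.76, 16.53 and 14.79 in mimic rats (0.68 ± 0.57, and 0.22 without the 3), so its low values are those of control 4, control 5 and mimic 5.

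The last comparison asked whether the mimic difference itself differed between synaptoneurosomes and homogenate. By limma's test of that difference over all 20 arrays 0 of 15465 genes passed (smallest adjusted p = 0.998), and 243 (1.57%) had an unadjusted p below 0.05. This fit pools the larger spread of synaptoneurosomes with the smaller spread of homogenate and treats same-numbered arrays as independent. With the smallest p on the lower side stood Mt1f, a gene named for a metallothionein, at -0.45 ± 0.13 in synaptoneurosomes and 0.33 in homogenate, a difference between fractions of -0.78 ± 0.21. Its synaptoneurosome arrays read 5.94, 5.93, 5.67, 6.16 and 5.59 in control and 5.31, 5.28, 5.30, 5.73 and 5.41 in mimic rats. In homogenate they read 5.44, 5.42, 5.76, 5.72 and 5.87 against 5.88, 5.95, 5.64, 6.54 and 5.86. The groups overlapped in both fractions. Rpl36al1 (-0.43 ± 0.12, for the brighter of its probe sets) and Spink4, named for a secreted protease inhibitor (-0.31 ± 0.09), followed.

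On the other side stood the long noncoding RNA LOC102552186 (0.40 ± 0.10), the pseudogene Kmt5c-ps1 (0.37 ± 0.10) and Mir376c (0.63 ± 0.18), a microRNA precursor gene. Mir376c read 4.62, 5.31, 4.95, 5.21 and 4.82 in control and 5.46, 5.33, 5.54, 5.26 and 5.29 in mimic synaptoneurosomes, and its homogenate mean was 5.10 in control and 4.86 in mimic rats. Mir299 had a difference between fractions of 0.39 with an unadjusted p of 0.0145 in limma. All of these genes are dim, with log2 levels below 7 except Rpl36al1.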

How the data were processed

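The authors deposited log2 expression values of probe sets for each array. The submitters' processing notes name Transcriptome Analysis Console and RMA, a method that removes background, gives arrays a like distribution and combines probes. Their versions and settings, and the build, were not given in the sources used here. Values were used as deposited: 68842 probe sets, array medians from 5.11 to 5.26, 0 columns without a sample. No depth exists for arrays, and their number limits precision. No replicates were duplicates (smallest mean absolute difference 0.154).

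The platform annotation, which can be old, gave 23446 probe sets exactly 1 symbol, 505 several and 44891 none here. RefSeq gene numbers matched 22077 probe sets and updated 1 symbol. Each of 22093 genes was represented by its brightest probe set (by the mean of all 20 arrays), and the lowest 30% (below 4.97) were left out.

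Groups came from sample titles. limma 3.58.1 in R 4.3.3 compared 5 with 5 arrays, two-sided, on the 10 synaptoneurosome arrays alone (8 residual and 2.21 prior degrees of freedom) because homogenate arrays varied less. Homogenate was fitted likewise, and fractions and their difference over the 20 arrays. The fits over 20 arrays pool the spread of both fractions and treat same-numbered arrays as independent, so their standard errors are approximate. P-values were Benjamini-Hochberg adjusted over all 15465 genes at a threshold of 0.05. Errors after ± are standard errors unless SD is given. Means and their exact permutation tests were computed in Python 3.11.15 with numpy 2.4.6, pandas 2.3.3 and scipy 1.17.1, and plots with matplotlib 3.10.9.

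Named genes were the 8 with the smallest p and the 5 with the largest difference on each side, up to 3 per list (6 per side for targets) by the size of the statistic, 3 per side for the difference between fractions, and precursors, targets and fraction markers fixed by name. Cpne2 and Stxbp6 fall outside the rule and are marked in the text. Of 31 lists, 29 had enough tested members, and those of leukocytes and blood did not. Members and lists were chosen with earlier results of these data known. Alternatives were fits over 20 arrays, without the filter, with an intensity trend, array weights, 2 scalings, all probe sets, a replicate block, and leaving out arrays.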

Additional observations from a re-analysis of the deposited data

Results flagged for a closer look

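Single arrays far from the other 4 of their group were looked for in the 2 synaptoneurosome groups of each named gene, 268 gene groups in all. A gap above 0.71 of the group's range to the nearest array (Dixon's criterion) was met by 25, and 13 of the 25 were values of mimic 5. A chance count of about 13.4 at 1 in 20 assumes unselected, independent groups. The named genes were largely picked on these arrays and many vary together, so the 25 cannot be weighed against it. Mimic 5 was the high array for Ttr at 13.51 (others 5.94 to 6.15), Clic6, a chloride channel gene of the choroid plexus, at 6.90, Npy at 9.79, Gabrd at 7.56, Syt2 at 9.17, Slc17a7 at 16.90, Pdgfra, a marker of oligodendrocyte precursors, at 12.70, Ndufa3 at 7.04 and Atp5d at 6.92. It was the low array for Rpph1 at 14.30, Snord33, a small nucleolar RNA, at 14.79, Homer2 at 10.48 and Rbl2 at 9.15.

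The other mimic arrays with such a gap were mimic 4 for Mt1f at 5.73, Nrgn, a dendritic calmodulin-binding protein gene, at 15.08 and the endothelial gene Vwf at 5.88, mimic 2 for Psma7 at 7.65 and mimic 3 for Acta2 at 6.14. In control arrays the values were Mir299 in control 3 at 5.37, Car3 in control 1 at 7.61, Dusp5 in control 1 at 5.13, Ifi27 in control 2 at 8.86, Vwf in control 2 at 6.69, the endothelial receptor gene Kdr in control 5 at 7.54 and Mir17 in control 5 at 4.22. The low control 3 value of Mir299 adds to its difference, and the 4 other controls, 5.65 to 5.75, still lay below the mimic arrays.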

How the results depend on the processing

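The count of genes with an adjusted p below 0.05 was 0 in every setting run except the removal of control 4, control 5 and mimic 5 together, which gave 1 (Cpne2); for the difference between fractions it was 0 in all settings run, while its 243 genes at an unadjusted p below 0.05 became 548 without the filter, 494 with the replicate block, 371 without the 3 arrays and 140 (without control 5) to 742 (without mimic 5) without single arrays, among them 433, 567 and 443 without controls 1, 3 and 4 and 143 without homogenate mimic 4. The 274 genes at an unadjusted p below 0.05 became 589 with array weights, 550 without the filter on dim genes, 542 in the fit over 20 arrays, 651 without the 3 arrays that stood apart and 1066 with the replicate number as a block. Of the 1066, 289 were higher and 777 lower in mimic rats. Leaving out single arrays gave 158 to 779, with 158 without mimic 3, 175 without mimic 1, 548 without control 3 and 779 without mimic 5. Same-numbered mimic and control arrays deviated together in 4 of 5 numbers (correlations 0.55, 0.59, 0.52, -0.30 and 0.83), and 4 of 5 correlated best with their own number. The labels state no pairing and number 4 runs against it, so whether the numbers pair the arrays is not settled, and the replicate block was kept as an alternative. The 49 genes without overlap became 83 without the filter (more genes tested), 665 without the 3 arrays and 69 to 257 without single arrays (fewer arrays to separate in each case). Of 29 list medians 21 were below 0, and 14 to 21 were when single arrays were left out. Median differences of the presynaptic, interferon, inflammation and autophagy lists changed sign with quantile scaling. Among 2470 values of single genes under alternatives, 21 moved by more than the spread between replicates and 29 changed sign without having been called; of list medians 1, that of stress genes (0.01 without the 3 arrays), moved by more than the spread of its own list between arrays. Larger moves of other lists, such as interneuron markers from -0.34 to 0.02, lay within the wider spread of those lists. Single arrays also moved the medians of proteasome genes (-0.29 without control 3, -0.07 without control 5), neurotrophin genes (-0.21 without mimic 5, -0.01 without control 5), mural and fibroblast markers (-0.35 without control 1, -0.16 without control 5), dendritic mRNAs (0.04 without control 5) and oligodendrocyte markers (-0.22 without control 1, 0.03 without control 2). Where no cause is given, the cause was not tested. Dim probe sets limit what can be read for Mir17 and the interferon genes.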

Other observations

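Mir299 lies in a cluster of microRNA genes on chromosome 6, and its neighbours were read after its value had been seen, as a description with no test. Within 1 Mb of it 36 other precursor genes had a probe set and 18 passed the filter on dim values. Mean values were higher in mimic synaptoneurosomes for 14 of these 18, with a median difference of 0.07 (0.04 without the 3 arrays that stood apart) and a range from -0.05 to 0.39. In homogenate their median was -0.06. At an unadjusted p below 0.05 in limma 1 of the 18 was higher, Mir376c, and 0 were lower. The other 146 tested precursors elsewhere in the genome had a median of 0.03, 82 of them higher, with 3 higher and 3 lower at an unadjusted p below 0.05, beside 1.77% of all genes. Precursors of such a cluster derive from shared transcripts, so they are not independent, and Meg3, the long noncoding RNA at its start, differed by 0.37 ± 0.37, and by 0.16 without the 3 arrays, with its lowest values in control 4 (9.50), control 5 (9.61) and mimic 5 (9.62).

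Arrays of the same number deviated together between the 2 fractions. The correlation of deviations from the group mean across genes was 0.24 to 0.48 for the 5 control numbers and 0.10 to 0.35 for the 5 mimic numbers, and in both treatments each synaptoneurosome array correlated best with the homogenate array of its own number. Single genes show it: for Kcnh5 controls 1 and 2, and for Cpne2 controls 4 and 5, were the highest controls in both fractions.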
